A study of Mus musculus with 19 samples.

Results

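Among single cells of the mouse colon epithelium at day 8 of regeneration, 71 cells held at least 1 RNA molecule of Ascl2 and none of the proliferation genes Mki67 and Top2a. They made up 3.51% of the 2020 cells kept. They were selected on measured values: a barcode had to reach a minimum of unique molecular identifiers (UMIs, each standing for 1 captured RNA molecule), hold at least 500 genes, at most 20% mitochondrial UMIs and under 1% of UMIs in 8 secretory genes (Reg4, Spink4, Agr2, Muc2, Tff3, Fcgbp, Clca1 and Zg16). Of 6794880 barcodes in the matrix, 3265 reached the UMI minimum, 3253 of these passed the mitochondrial limit, and 1233 of those were left out as secretory; the shallowest kept cell held 6796 UMIs. The other kept cells were 325 with no UMI of Ascl2, Mki67 or Top2a, called comparison cells here, 614 Ascl2-positive cells with Mki67 or Top2a UMIs, and 1010 Ascl2-negative cells with them, both called cycling.

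The series holds 19 samples, of which the day 8 single-cell library and 7 bulk RNA libraries of adult colon cells are used here. The single cells came from 1 library, with no replicate, of C57BL/6 and 129/Sv mixed mice of the genotype Ascl2(mCh); Lgr5Dtr-Egfp+, sorted for mCherry, the reporter placed on Ascl2, and against GFP, the reporter placed on Lgr5. The bulk libraries were 3 of wild-type colon stem cells and 2 of regenerating cells, both of that same genotype, and 2 of Ascl2 KO stem cells of the genotype Ascl2Fl/Fl; Lgr5EGFP-Cre+, which carries a Cre driven by Lgr5. One treatment text covers all samples: diphtheria toxin, 50 ug/kg given 4 times, to kill cells that carry its receptor from Lgr5, and tamoxifen, 2 mg on the first and second day and 1 mg on the third, to remove Ascl2. It does not say which samples received which, so the groups are read from their names and genotypes. The day of the bulk regenerating cells is not given either. Age is not given, and the labels do not say whether bulk replicates are separate animals, so their p-values measure only the spread between these samples.

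Ascl2 encodes a basic helix-loop-helix transcription factor of the crypt base, downstream of Wnt signalling, where it marks stem cells together with Lgr5. Such factors bind short DNA motifs called E-boxes. Cells that leave the crypt base pass through a dividing zone, lose stem cell genes and take on the transport, brush border and keratin genes of absorptive colonocytes.

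The 71 Ascl2+ Mki67- cells held 8290 to 38725 UMIs, with a median of 15572, and a median of 3815 genes. Each was paired with 1 comparison cell of nearly the same depth (within 5%), and UMIs were summed over the 71 cells on each side, 1283469 against 1281216. Levels are given as UMIs per 1000000 (CPM), and 95% intervals are exact and cover counting error only. With 1 library there is no test between the cells: a gene counts as called when it differs at least 1.5-fold and reaches 20 CPM on the higher side. A gene under 20 CPM in the other cells thus enters only if higher in the Ascl2+ Mki67- cells, and the reverse. Counts of called genes follow in part from this filter.

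Of the 71 cells, 53 held 1 Ascl2 UMI, 9 held 2, 8 held 3 and 1 held 4. Free RNA can give such single UMIs. Among kept cells with at least 10 UMIs of the mature colonocyte genes Car4, Slc26a3 and Aqp8, 2 of 138 (1.45%, exact interval 0.176 to 5.14) held Ascl2, at a median depth of 20288.5 UMIs, against 685 of all 2020 kept cells (33.9%), whose median depth was 25496 UMIs. Barcodes of 1 to 100 UMIs, which are mostly free RNA, held Ascl2 at 14.5 CPM. Kept cells without Mki67 or Top2a UMIs, from which the 71 were taken, held it at 12.5 CPM (71 of 396 cells, 17.9%). How many of the 71 held Ascl2 from free RNA was not tested. Just outside the rule, 43 Ascl2-positive cells held exactly 1 UMI of Mki67 plus Top2a; their levels were 135 CPM for Sox4, 150 CPM for Fut9, 235 CPM for Gdf15 and 130 CPM for Mcm6, where the 71 cells had 204, 121, 251 and 88.8 CPM. Lowering the UMI minimum to 5000 would have added 1 cell.

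The label's absence of proliferation held only in part. A list of 24 mitosis genes other than the pair in the rule gave 0 to 15 UMIs per cell with a median of 2, and 15 of the 71 cells had none. Its sum was 158 CPM, against 75.7 CPM in the comparison cells. Against Ascl2-positive cycling cells at the same depth (67 pairs), all 24 genes were called lower and the summed ratio was 0.085 (0.0726 to 0.099). The list is close to the rule, so that difference is a description of the choice.

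**Figure D1:**
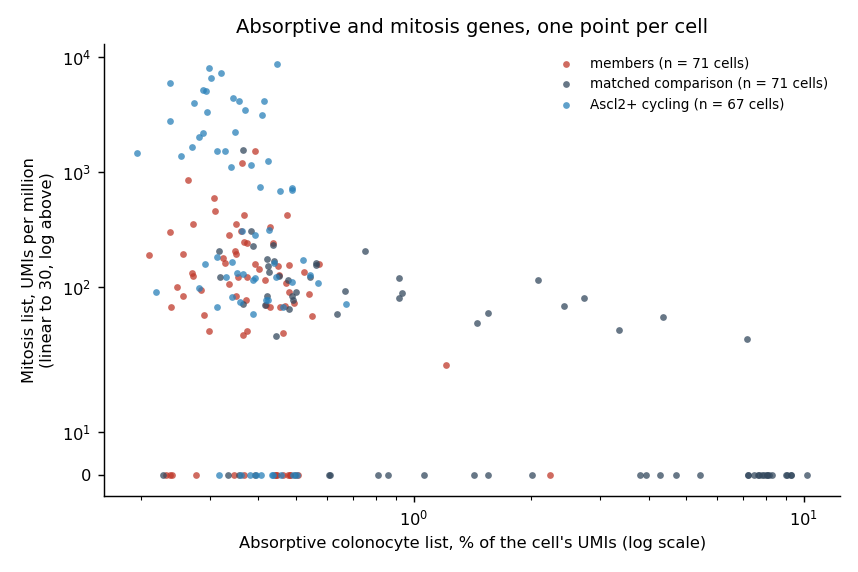
Each point is 1 cell: the share of its UMIs in the absorptive colonocyte list (x, percent, log scale) and its UMIs of the mitosis list as CPM (y, linear to 30, then log), for the 71 Ascl2+ Mki67- cells (members), their 71 matched comparison cells and 67 Ascl2-positive cycling cells at the same depth. The Ascl2+ Mki67- cells sit at absorptive shares of 0.210% to 2.23%, while the comparison cells spread from 0.228% to 10.2%.

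The comparison cells were mixed. Absorptive genes took a median of 0.371% of UMIs in the Ascl2+ Mki67- cells and 0.918% in the matched comparison cells, of which 22 of 71 held at least 10 UMIs of Car4, Slc26a3 and Aqp8. No Ascl2+ Mki67- cell held a UMI of those 3 genes. A second pairing, on depth and on absorptive share together, left 47 pairs, with median shares of 0.427% and 0.416%. The 47 differed from the 71 in more than number. Their lowest absorptive share was 0.263% beside 0.210%, and their median UMIs of origin licensing and replication genes were 10 beside 16. A change between the pairings can thus come from either side of the pairs. The main results below are therefore given for both pairings. Of 5917 genes tested by depth alone, 1315 were called higher (22.2%) and 1093 lower (18.5%); of 5718 tested with absorptive share matched too, 421 were called higher (7.36%) and 435 lower (7.61%).

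Among the markers given for these cells, Sox4 stood apart most. Sox4, an HMG-box transcription factor of progenitor cells, was at 204 CPM (180 to 230) in the Ascl2+ Mki67- cells and 65.6 CPM in the depth-matched comparison cells, a ratio of 3.11 (2.43 to 4.03). Per cell it ranged from 0 to 14 UMIs with a median of 3; 55 of 71 cells held it, against 28 of 71 comparison cells. After thinning every cell to the UMI minimum those shares were 56.3% and 26.8%, and 0% of the 138 colonocytes (exact upper limit 2.64%). With absorptive share matched the ratio was 1.85 (1.43 to 2.41). The excess of Sox4 was therefore smaller, and still called, beside comparison cells with as little colonocyte RNA.

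Fut9, a fucosyltransferase that makes the Lewis x sugar, was at 121 CPM against 51.5 CPM, a ratio of 2.34 (1.75 to 3.18), and at 1.44 (1.05 to 2.00) with absorptive share matched. Gdf15, a secreted stress-induced TGF-beta family member, was at 251 CPM against 102 CPM, a ratio of 2.45 (2.00 to 3.03), but at 1.09 (0.897 to 1.32) in the second pairing. Mcm6, a subunit of the replicative helicase, was at 88.8 CPM against 46.8 CPM, a ratio of 1.90 (1.38 to 2.64), and turned to 0.824 (0.590 to 1.15) in the second. Of the 4 markers besides Ascl2, only Sox4 was thus called in both pairings. Gdf15 and Mcm6 did not differ detectably from comparison cells of the same absorptive share.

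**Figure D2:**
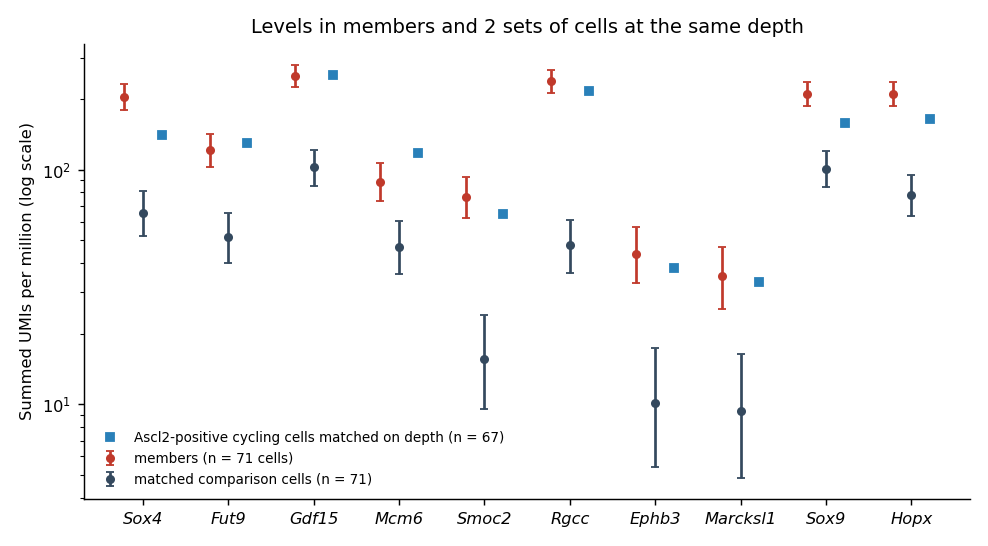
Summed UMIs as CPM (y, log scale) of 10 genes in the 71 Ascl2+ Mki67- cells (members), in 71 depth-matched comparison cells, both with exact 95% intervals for counting error, and in 67 Ascl2-positive cycling cells of the same depth. Sox4 stands at 204 CPM against 65.6 and 141 CPM, while Smoc2 stands at 76.4 CPM against 15.6 and 64.7 CPM.

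The 20 genes with the highest ratios that lay above 1 at low, middle and high depth were Lyrm4, Socs1, Rgcc, Smoc2, Trub1, Tspan32, Slc35c2, Rasd1, Bsn, Fam69b, Tnfaip8l1, Ephb3, Tmem131l, Bex1, Hira, Polr3g, Rpap3, Nme4, Zfp318 and Marcksl1. Their ratios ran from 3.74 to 7.74, with levels of 20.3 to 238 CPM. All 20 stayed above 1 with absorptive share matched, where the median ratio was 1.88 and 11 were called. These pairs reuse cells in which the 20 were picked for high ratios, so this is no separate support. Smoc2, a secreted matrix protein of the intestinal stem cell signature, was at 76.4 CPM against 15.6 CPM, a ratio of 4.89 (3.00 to 8.36), and at 2.39 (1.53 to 3.83) in the second pairing. It was found in 43 cells against 12. Rgcc, a regulator of the cell cycle, was at 238 CPM against 47.6 CPM, a ratio of 4.99 (3.78 to 6.68), and at 1.71 (1.31 to 2.23) in the second. Ephb3, a receptor that keeps crypt base cells in place, was at 43.6 CPM against 10.1 CPM, a ratio of 4.30 (2.32 to 8.57) beside 1.16 (0.646 to 2.08) in the second. Socs1, an inhibitor of cytokine signalling, was at 28.0 CPM against 4.68 CPM, a ratio of 5.99 (2.50 to 17.4), with 36.1% of its UMIs in 1 cell, and at 2.44 (1.25 to 5.07) in the second. Of these 4 genes, Ephb3 alone lost its excess once absorptive share was matched.

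The promoters of Sox4 and Ephb3 are shown because both genes were high in these cells, were lower in the Ascl2 KO bulk libraries below, and carry the E-box letters CAGCTG, a sequence that reads the same on both strands. They are from RefSeq on GRCm38.p6, from 250 bases before the transcription start to 50 after it, on the strand of the gene, with the E-box in capitals. Sox4 lies at chr13:28953650-28953949 on the minus strand, with its E-box 211 bases before the start, and Ephb3 at chr16:21204545-21204844 on the plus strand, with its E-box 137 bases before the start. Marcksl1 and Mcm6 were also higher by depth and lower in those libraries, but lack these letters in the same window. Smoc2, another such gene, has no promoter entry.
Sox4: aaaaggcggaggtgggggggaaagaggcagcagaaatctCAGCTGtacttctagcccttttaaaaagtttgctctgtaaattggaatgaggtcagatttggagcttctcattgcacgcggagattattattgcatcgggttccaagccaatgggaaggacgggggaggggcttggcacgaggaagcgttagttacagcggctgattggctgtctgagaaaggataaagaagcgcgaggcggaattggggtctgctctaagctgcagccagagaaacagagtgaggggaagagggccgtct
Ephb3: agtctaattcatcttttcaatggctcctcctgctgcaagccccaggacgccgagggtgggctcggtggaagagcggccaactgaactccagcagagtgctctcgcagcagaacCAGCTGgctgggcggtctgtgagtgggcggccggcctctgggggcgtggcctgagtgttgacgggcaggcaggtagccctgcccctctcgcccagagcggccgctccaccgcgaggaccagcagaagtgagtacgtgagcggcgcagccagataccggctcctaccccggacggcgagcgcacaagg
Its share was no larger among the genes that were higher. The letters lay in 4944 of 27025 genes' promoters (18.3%) in the table, in 15.4% of the 4727 tested genes with an entry, in 13.7% of the 1061 higher genes and in 23% of the 866 lower genes. Of the 20 leading genes, 17 had a promoter entry and 5 of them the motif (29.4%), a larger share but from few genes. Binding at these sites was not analysed here.

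The same contrast was made in the cycling cells, which the rule did not choose. There, 612 Ascl2-positive cells were paired by depth with 612 Ascl2-negative ones. Of 5630 genes tested, 13 were called higher (0.231%) and 74 lower (1.31%). Of the 13, 12 were also called higher in the Ascl2+ Mki67- cells by depth, where 22.2% of all genes were. Those 12 were Lix1, Cldn14, Rgcc, Mt2, Smoc2, Marcksl1, Axin2, Ephb3, Fut9, Foxa3, Ifitm3 and Bex1. Rgcc was at 188 CPM against 104 CPM, a ratio of 1.81 (1.72 to 1.91), and Smoc2 at 49.1 CPM against 28.3 CPM, a ratio of 1.74 (1.56 to 1.93). Axin2, a feedback inhibitor and direct target of Wnt signalling, was at 49.2 CPM against 30.3 CPM, a ratio of 1.62. Fut9 was at 1.56 (1.47 to 1.67) and Sox4 at 1.40 (1.31 to 1.49), the latter below the fold used to call. Mcm6 was at 1.14 and Gdf15 at 0.934. The 13th gene, the peptide hormone gene Pyy, had 83.6% of its UMIs in 1 cell. Both sets of cells come from the same library, so this is no replicate.

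Colonocyte RNA moved with Ascl2 in these pairs too. The absorptive list was lower in the Ascl2-positive cells, with a summed ratio of 0.650 and 9 of 16 tested genes called. The early colonocyte list was at 0.409 and the Fabp6 and gasdermin C list at 0.318. Of the 74 lower genes, 73 were also called lower in the Ascl2+ Mki67- cells by depth, where 18.5% of all genes were. Pairing the cycling cells on absorptive share as well, a step chosen after seeing the data, left 513 pairs with median shares of 0.370% and 0.369%. Of 5581 genes tested, 1 was then called higher (0.0179%) and 4 lower (0.0717%), and 0 of the 13 genes were called. The 1 higher gene was not called higher in the Ascl2+ Mki67- cells, and 2 of the 4 lower were called lower there. The 12 stood between 1.06 and 1.49: Lix1 at 1.49 (1.36 to 1.63), Smoc2 at 1.32 (1.18 to 1.48), Fut9 at 1.29 (1.20 to 1.39), Rgcc at 1.27 (1.20 to 1.34) and Axin2 at 1.23 (1.10 to 1.38). Bex1, at 1.06 (0.897 to 1.25), was the only one of the 12 whose interval included 1. Sox4 was at 1.16 (1.08 to 1.25). A small excess thus remained for most of these genes in these pairs, below the fold used to call. The 12 were picked as higher in overlapping cells, so this is no separate support. The pairs also differed in mitosis genes, with a median of 20 UMIs per Ascl2-positive cell and 36 per Ascl2-negative cell.

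**Figure D3:**
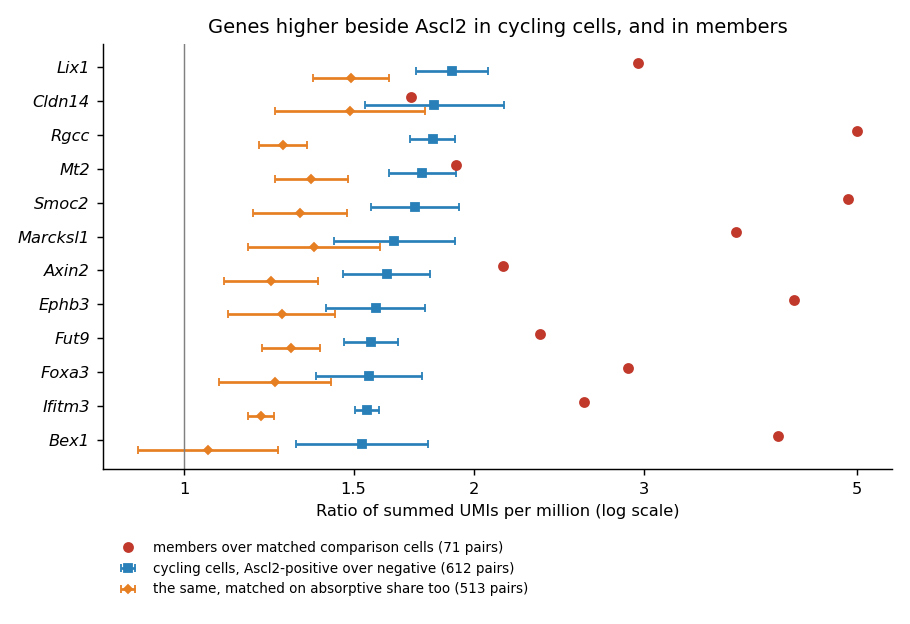
Ratio of summed CPM (x, log scale) for the 12 genes, in 612 pairs of Ascl2-positive and Ascl2-negative cycling cells matched on depth (squares), in 513 such pairs matched on absorptive share too (diamonds), both with exact 95% intervals, and in the 71 pairs of Ascl2+ Mki67- and comparison cells (circles). The cycling ratios lie between 1.53 and 1.90 by depth and between 1.06 and 1.49 with absorptive share matched, and those of the Ascl2+ Mki67- cells between 1.72 and 4.99.

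Genes of the crypt base were higher as a group. Of 15 tested genes of a 24-gene crypt base stem list, 12 were called higher and 2 lower, beside 22.2% and 18.5% of all genes. The median log2 ratio was 1.10 beside 0.14 for all genes, and the summed level was 1374 CPM against 743 CPM. With absorptive share matched, 4 of 16 were called higher and 1 lower, beside 7.36% and 7.61% of all genes. The summed ratio was 1.30 (1.19 to 1.42), and the median was 0.25 beside 0.01 for all genes. Lgr5 itself gave 5 UMIs in the 71 cells, at 3.90 CPM, and none in the comparison cells, from a sort against the Lgr5 reporter. Cdk6, a G1 cyclin-dependent kinase, was at 60.8 CPM against 18.0 CPM, a ratio of 3.39 (2.10 to 5.65), and Rgmb, a BMP co-receptor, was at 3.17 (1.96 to 5.31); in the second pairing they were at 1.60 and 1.66.

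Wnt, Notch and Sox genes showed the same order of the pairings. Of 7 tested Wnt target genes, 5 were called higher and 1 lower, beside 22.2% and 18.5% of all genes. Ephb2, Ephb3, Axin2 and Rnf43 are in the crypt base list too, and Ephb3 and Rnf43 entered only through the Ascl2+ Mki67- cells. Myc, a transcription factor that drives growth, was at 61.6 CPM against 20.3 CPM, a ratio of 3.03 (1.93 to 4.92). Rnf43, which removes Wnt receptors, was at 2.93 (1.63 to 5.54). Of 3 tested Notch pathway genes 2 were called higher: the receptor Notch1 at 2.53 (1.36 to 4.95) and the effector Hes1, which represses secretory fate, at 252 CPM against 130 CPM, a ratio of 1.94 (1.61 to 2.36). Sox9, expressed in crypt progenitors, was at 210 CPM against 101 CPM, a ratio of 2.09 (1.69 to 2.60). In the second pairing the ratios were 1.38 for Myc, 1.32 for Rnf43, 1.43 for Notch1, 1.25 for Hes1 and 1.36 for Sox9, each above 1 and under the fold used to call. Their intervals are not given here, so these ratios are not read as an excess. Of 8 tested Wnt target genes 0 were called higher and 1 lower, and of 3 Notch pathway genes 0 either way. Among all genes 7.36% were called higher and 7.61% lower. The summed ratios were 1.16 (1.00 to 1.33) for Wnt targets and 1.21 (1.01 to 1.44) for the Notch pathway.

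Growth and replication genes were higher by depth alone, and level or slightly lower once absorptive share was matched. Among all genes, 22.2% were called higher by depth, and 7.36% higher and 7.61% lower in the second pairing. Of 19 tested Myc and ribosome biogenesis genes 18 were called higher, with a summed ratio of 1.86 (1.78 to 1.95); in the second pairing 2 of 19 were, with 1.05 (1.00 to 1.11). Gnl3, a nucleolar GTPase, was at 131 CPM against 55.4 CPM. Of 20 tested origin licensing and replication genes 12 were called higher, with a summed ratio of 1.60 (1.47 to 1.74); in the second pairing 2 of 19 were called lower and the ratio was 0.881 (0.799 to 0.971). Pcna, the polymerase clamp, was at 53.8 CPM against 29.7 CPM, and Uhrf1, which guides maintenance methylation, at 28.0 CPM against 10.9 CPM. The list ranged from 0 to 69 UMIs per cell with a median of 16 in the Ascl2+ Mki67- cells, and from 0 to 100 with a median of 4 in the comparison cells. Both sides changed in the second pairing. The list summed to 1072 CPM against 670 CPM by depth, and to 927 CPM against 1052 CPM with absorptive share matched.

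The 12 genes with the lowest ratios were Reg3b, Saa1, Krt20, Car4, Clca4b, Reg3g, Aqp8, Slc26a3, Apol10a, Ceacam20, 1810065E05Rik and Mgat4c, several of them transport genes of mature colonocytes. Car4, a brush border carbonic anhydrase, Slc26a3, the chloride-bicarbonate exchanger, and Aqp8, a water channel, had no UMI, against 975, 467 and 495 CPM in the comparison cells; read at 3 UMIs over the 71 cells, Car4 was at least 417-fold lower. Krt20, a keratin of differentiated cells, was at 0.779 CPM against 620 CPM. The antimicrobial lectin Reg3b was at 1.56 CPM against 2165 CPM, the latter from 9 cells. In the early colonocyte list, which holds Reg3b, Reg3g and Saa1, 4 of 6 tested genes were called lower, beside 18.5% of all genes. Duox2 and Duoxa2 were at 0.924 and 0.699. In the second pairing 4 of the 12 lowest genes were still called, Reg3b, Reg3g, Apol10a and Mgat4c. Reg3b was then at 1.18 CPM against 57.0 CPM, Saa1 was level at 3.53 CPM against 3.56 CPM, and Car4 and Aqp8 had no UMI on either side. All 26 tested absorptive colonocyte genes were called lower, with a summed ratio of 0.149 (0.145 to 0.154). This list defines the second pairing, in which 14 genes were tested and the ratio was 0.858.

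A fetal-like repair list was mixed by depth alone. Of its 11 tested genes 7 were called lower, beside 18.5% of all genes, among them S100a6, Areg and Anxa1. The keratin Krt7 was called higher, at 105 CPM against 68.7 CPM, a ratio of 1.53. S100a11, Ly6e and Ccnd2 were at 1.10, 1.25 and 1.38. The list had a summed ratio of 0.406 (0.395 to 0.417) that moved to 0.867 (0.835 to 0.901) in the second pairing, where 0 of 10 tested genes were called either way. Krt8 was at 1882 CPM against 5090.5 CPM, a ratio of 0.370, and Ly6a, the surface antigen Sca-1, at 200.2 CPM against 1583 CPM. With as little absorptive RNA on both sides Krt8 was at 0.795, Ly6a at 1.02 and Krt7 at 1.07. In the reserve stem list the genes split: Lrig1, an inhibitor of ErbB receptors, was at 3.03 (1.93 to 4.92) and Hopx, a homeodomain cofactor, at 2.70 (2.14 to 3.43), while Krt19 was at 0.408 and pulled the sum to 0.520 although the median log2 ratio was 1.25. In the second pairing Lrig1 was at 1.75 and Hopx at 1.52.

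**Figure D4:**
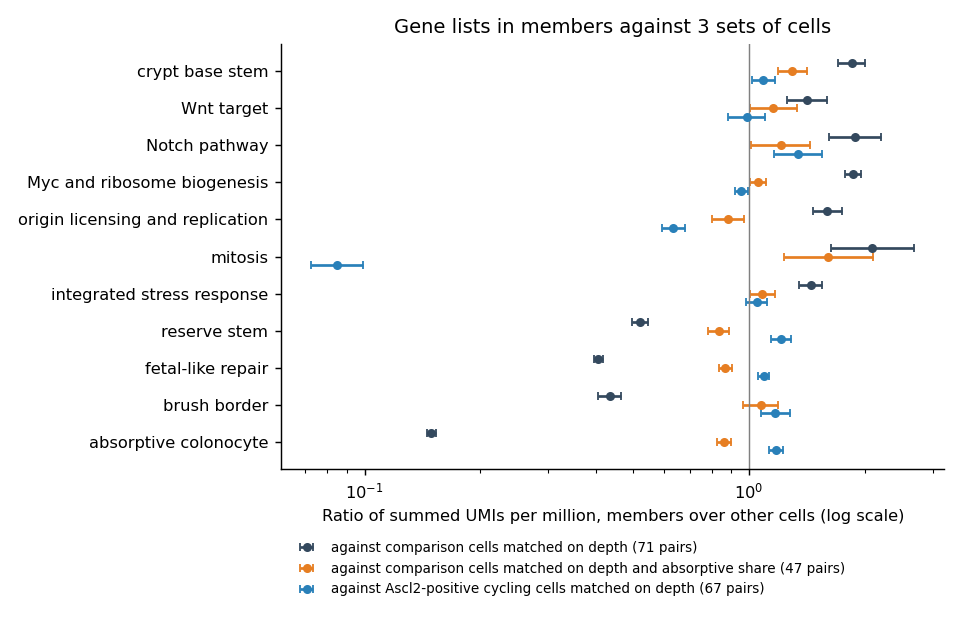
Ratio of summed CPM of 11 gene lists (x, log scale), Ascl2+ Mki67- cells (members) over 3 sets of cells, with exact 95% intervals for counting error. The crypt base stem list stands at 1.85, 1.30 and 1.09, and origin licensing and replication at 1.60, 0.881 and 0.634.

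RNA of secretory cells was present beyond the 8 genes of the filter, and that of non-epithelial cells was low. Goblet and deep crypt secretory genes summed to 665 CPM, with a ratio of 0.438 by depth and of 0.956 (0.852 to 1.07) with absorptive share matched. Of 9 tested, 2 were called higher by depth, Foxa3 at 2.89 and St6galnac1 at 2.35, and 4 lower. Among all genes 22.2% were higher and 18.5% lower, so the 2 higher are near that share. In the second pairing 0 of 9 were called. Enteroendocrine genes summed to 7.79 CPM, with 18 of 21 at 0, stromal genes to 2.34 CPM, with 11 of 13 at 0, and endothelial genes to 3.12 CPM, with 7 of 8 at 0. Tuft cell genes summed to 21.0 CPM, up to 23 UMIs in 1 cell, with 4 of 15 at 0. Their summed ratio was 2.25 (1.10 to 4.87) by depth and 2.86 (1.30 to 6.95) with absorptive share matched. Most of that sum came from the 1 cell, and what this cell is was not tested. Immune genes summed to 143 CPM, of which 142 CPM was Cd14, and 15 of 18 were at 0.

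Beside Ascl2-positive cycling cells of the same depth the Ascl2+ Mki67- cells were close in stem cell genes and lower in replication. Of 5848 genes tested, 274 were called higher (4.69%) and 492 lower (8.41%). Ratios were 1.15 (0.841 to 1.57) for Smoc2, 1.11 for Rgcc, 0.942 for Fut9 and 1.00 for Gdf15, with intervals that include 1. Sox4 was at 204 CPM against 141 CPM, a ratio of 1.45 (1.19 to 1.77). Hes1 was at 1.62 (1.35 to 1.95), Myc at 1.76 (1.20 to 2.63) and Cdk6 at 1.54 (1.06 to 2.24). Of 21 tested origin licensing and replication genes 12 were called lower, among them Uhrf1 at 0.458 and Gins2 at 0.402, with a summed ratio of 0.634 (0.592 to 0.679). Ube2c, a mitotic ubiquitin-conjugating enzyme, was at 26.6 CPM against 239 CPM.

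The 71 cells varied among themselves. Of the 71, 30 held UMIs of all of Sox4, Smoc2 and Rgcc, and 6 held none of the 3. The share of UMIs in the absorptive list ran from 0.210% to 2.23%, and the next highest cell was at 1.21%; the highest cell held 222 UMIs of Lypd8, 34 of Fabp6 and 27 of Gsdmc4. The 18 cells with 2 or more Ascl2 UMIs had Sox4 at 271 CPM (219 to 333), those with 1 at 180.0 CPM (154 to 209) and the matched comparison cells at 65.6 CPM. Gdf15 was at 274, 243 and 102 CPM in that order and Smoc2 at 82.5, 74.1 and 15.6 CPM. Rgcc went against that order, at 147 CPM (109 to 194) in the cells with 2 or more and 270 CPM (238 to 305) in those with 1. The intervals of all 3 sets were separate for Sox4 and Rgcc, in different orders, while those of Gdf15 and Smoc2 overlapped between the cells with 1 and those with 2 or more.

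In the bulk libraries, Ascl2 KO stem cells were compared with wild-type stem cells, by edgeR's quasi-likelihood test with Benjamini-Hochberg adjustment over 13911 genes. The targeted gene Ascl2 gave 110, 151 and 104 CPM without the deletion, and 53.8 and 59.2 CPM with it, a log2 change of -1.11 ± 0.27 (SE, adjusted p = 0.0115). That call was lost without knockout replicate 1 (adjusted p = 0.0780) and without knockout replicate 2 (adjusted p = 0.0544). Reads outside the deleted part would still be counted, so that level is no measure of how many cells lost the gene. The sorts differ in reporter allele, which cannot be told apart from the knockout. In all, 2618 genes rose (18.8%) and 2421 fell (17.4%). Without composition scaling 1233 rose and 5328 fell, and the median gene moved by -0.98 on the log2 scale.

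The markers Sox4 and Mcm6 and 3 of the 19 tested leading genes fell in the knockout (15.8% of the leading genes, beside 17.4% of all genes). Sox4 was at 181, 169 and 186 CPM in wild type and 48.5 and 57.4 CPM in the knockout, a log2 change of -1.75 ± 0.21 (adjusted p = 0.000345). Smoc2 was at 347, 329 and 264 CPM against 70.4 and 69.8 CPM, a change of -2.16 ± 0.24 (adjusted p = 0.000199). Ephb3 was at 100.3, 95.3 and 82.1 CPM against 16.5 and 16.1 CPM, a change of -2.50 ± 0.24 (adjusted p = 0.000109). Mcm6 was at 172, 307 and 164 CPM against 58.0 and 56.5 CPM and fell by 1.90 ± 0.33 (adjusted p = 0.00231). Marcksl1, an actin-binding protein, fell by 1.44 ± 0.30 (adjusted p = 0.00601), a call lost without knockout replicate 2 (adjusted p = 0.0535). The wild-type and knockout libraries did not overlap for any of these 5 genes. The share of all genes without overlap was not counted, so this does not set the 5 apart.

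Others rose. Rgcc was at 206, 317 and 237 CPM in wild type and 891 and 866 CPM in the knockout, a log2 change of 1.79 ± 0.26 (adjusted p = 0.000883). Gdf15 was at 62.8, 334 and 97.3 CPM against 1667 and 1244 CPM, a change of 3.14 ± 0.61 (adjusted p = 0.00388). The groups did not overlap for either gene, a separation not counted over all genes. Both calls and directions were the same without composition scaling, where the changes were 0.80 and 2.12. Fut9 was at 24.3, 12.9 and 26.7 CPM against 13.0 and 10.1 CPM, overlapping, with a change of -0.88 ± 0.40 (adjusted p = 0.117); without composition scaling its change was -1.86 (adjusted p = 0.00442). High in the same cells, Rgcc and Gdf15 thus moved against Sox4, Smoc2 and Ephb3 in the knockout.

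Of the 19 tested leading genes, 4 rose (21.1%), Rgcc, Lyrm4, Nme4 and Bex1, and 3 fell (15.8%), Smoc2, Ephb3 and Marcksl1, shares near the 18.8% and 17.4% of all genes. Bex1 lost its call under 9 of 12 alternatives, with adjusted p from 0.0113 to 0.707, and Nme4 under 6 of 12, with adjusted p from 0.00982 to 0.938. For both these included library size alone and a replicate block (adjusted p of 0.0709 for Bex1 and 0.0861 for Nme4). Lyrm4 lost its call under library size alone (adjusted p = 0.249) and without knockout replicate 1 (adjusted p = 0.0671). Of 1253 tested genes that were higher in the Ascl2+ Mki67- cells by depth, 315 rose (25.1%) and 338 fell (27%), with a median log2 change of 0.00 beside -0.02 for all genes. Of the 403 tested genes higher with absorptive share matched, 65 rose (16.1%) and 102 fell (25.3%), with a median of -0.19.

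**Figure D5:**
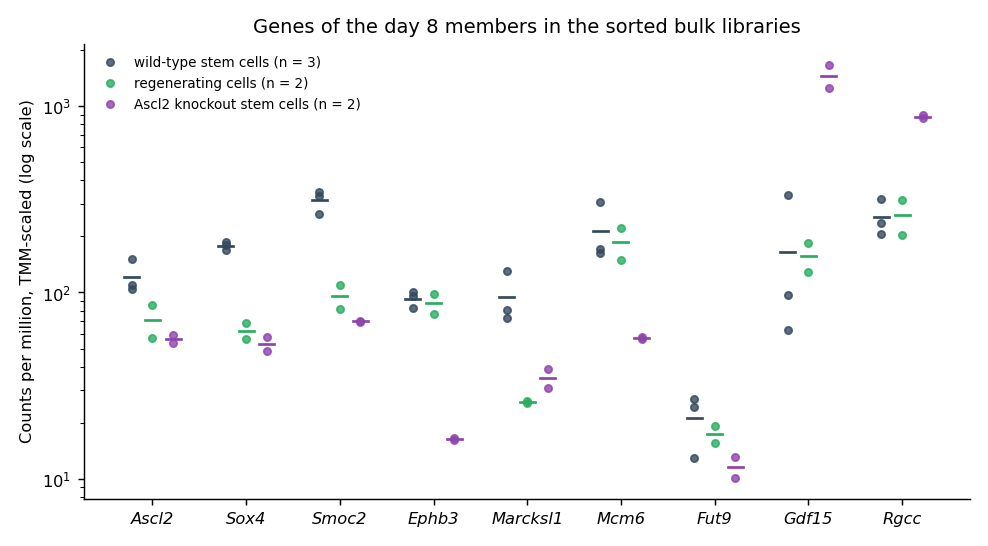
Counts as CPM (y, log scale, TMM-scaled) of 9 genes in each bulk library (points) with the group mean (bar), for 3 wild-type, 2 regenerating and 2 Ascl2 knockout libraries. Sox4, Smoc2, Ephb3, Marcksl1 and Mcm6 lie lower in both knockout libraries than in any wild-type one, and Gdf15 and Rgcc lie higher.

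In the bulk regenerating cells, compared with the same wild-type libraries, 42 genes rose (0.302%) and 4 fell (0.0288%), and 1460 had an unadjusted p under 0.05. The count depended on the fit: DESeq2 gave 289 up and 181 down, no low count filter 173 and 52, and leaving out 1 library 1 to 34 up and 0 to 6 down, with 1 up without regenerating replicate 2 and 1 up without wild-type replicate 1. Smoc2 was at 81.7 and 109.6 CPM against the wild-type values above, a log2 change of -1.71 ± 0.23 (adjusted p = 0.0204), and Sox4 at 68.2 and 56.2 CPM, a change of -1.52 ± 0.21 (adjusted p = 0.0223). Both fell below every wild-type library, which was likewise not counted over all genes. Neither call was stable: Smoc2 lost it under 6 of 12 alternatives, with adjusted p from 3.66e-09 to 0.162, and Sox4 under 8 of 12, with adjusted p from 3.18e-09 to 0.255. Marcksl1 was at 26.0 and 25.6 CPM, a change of -1.87 ± 0.31 (adjusted p = 0.0531). Ephb3 was at 76.7 and 98.0 CPM and Rgcc at 315 and 203 CPM, within or close to the wild-type range, with changes of -0.08 ± 0.21 and 0.03 ± 0.26 (adjusted p of 0.976 and 0.997). Ascl2 was at 85.7 and 57.0 CPM, also below every wild-type library, with a change of -0.77 ± 0.26 that was not called (adjusted p = 0.316). The other given markers, Fut9, Gdf15 and Mcm6, changed by -0.30, -0.07 and -0.20 without a call (adjusted p of 0.931, 0.997 and 0.940). Both bulk comparisons share their wild-type libraries.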

How the data were processed

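The single-cell matrix and the bulk table were deposited by the authors as counts: whole UMIs per gene and barcode, and whole reads per gene and library. Per the submitters' processing notes, the tools were Cell Ranger 3.0.2, STAR 2.5.3a, HTSeq and DESeq2 on GRCm38 (mm10); which step each served is not given in the sources used here. The single-cell matrix holds empty droplets too. Doublets were looked for once: Scrublet in scanpy 1.11.5 marked 4 of 3253 barcodes, too few to count as working, and none among the 71 cells.

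Ascl2+ Mki67- cells were paired 1:1 with cells within 5% of their UMI total, without replacement. UMIs were summed per set; ratios carry exact conditional binomial 95% intervals, levels exact Poisson ones and shares Clopper-Pearson ones. A set at 0 was read at 3 UMIs. Named genes were the 5 given markers, the 20 highest and 12 lowest ratios on the same side of 1 at low, middle and high depth, and up to 4 genes per list with at least 20 CPM. The members, lists and tests were chosen with earlier results of these data known. Tests on simulated data were run for both kinds of count.

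Bulk counts, 16553279 to 30074569 per library, were fitted for all 7 libraries together with edgeR 4.0.16 (TMM, filterByExpr, quasi-likelihood test, threshold 0.05), in R 4.3.3. DESeq2 1.42.0 was an alternative. Embryonic hindgut and ChIP libraries are not analysed here.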

Additional observations from a re-analysis of the deposited data

Results flagged for a closer look

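Ascl2 UMIs were also present in the barcodes left out as secretory, which no comparison above uses. There, 207 of 1233 barcodes (16.8%, exact interval 14.7 to 19.0) held one at a median depth of 14555 UMIs, against 2 of 138 mature colonocytes. Their level was 11.8 CPM, below the 14.5 CPM of barcodes with 1 to 100 UMIs. Kept cells without Mki67 or Top2a UMIs, the pool of the 71, were close to this. In that pool 71 of 396 (17.9%, exact interval 14.3 to 22.1) held Ascl2, at a median depth of 16347 UMIs. The level of the pool was 12.5 CPM, also below 14.5 CPM.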

How the results depend on the processing

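Of the values given for genes and lists in the single cells, 620 stayed within the counting interval of the reported value, 176 moved outside it without turning, and 7 turned. With absorptive share matched, 47 pairs were left, 421 genes were called higher and 435 lower, and the ratios turned for Mcm6 (0.824), Ly6a (1.02), Pcna (0.967), origin licensing and replication (0.881) and brush border (1.07). The interferon gamma response list, not among the 7, turned too, from 0.886 to 1.15. At least 2 Ascl2 UMIs left 18 cells, and Reg3b turned to 1.499. No UMI of the mitosis list left 15 cells, with 2703 genes called higher and 1740 lower, and Gins2 turned to 0.668. Calling at 2-fold gave 368 higher and 608 lower, and a level of 50 CPM gave 634 and 589. Between Ascl2-positive and Ascl2-negative cycling cells, matching on absorptive share left 1 gene higher and 4 lower. All 20 leading genes stayed above 1 under the 12 alternatives that recompute them, 2 of them chosen after seeing the data. The genes were picked for high ratios in largely the same cells, so this outcome was nearly fixed in advance.

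In the knockout, library size alone gave 1233 genes up and 5328 down, with 1 leading gene up and 11 down, and 124 up and 645 down among genes higher in the Ascl2+ Mki67- cells. Leaving out 1 library gave 1834 to 2425 up and 1579 to 2274 down, with 2 to 4 leading genes up and 2 to 3 down; the 1579 came without knockout replicate 1. In the regenerating cells DESeq2 gave 289 up and 181 down, no low count filter 173 and 52, and only the groups compared 6 and 0; leaving out 1 library gave 1 to 34 up and 0 to 6 down. The causes were not tested. Replicate numbers did not count as pairing (correlations 0.00964 to 0.107, 2 pairs per comparison); a replicate block gave 2266 up and 2087 down in the knockout, and 40 up and 7 down in the regenerating cells. At the depth of 71 cells, ratios of genes near 20 CPM have intervals several-fold wide.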

Other observations

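Tspan32, a tetraspanin gene among the 20 with the highest ratios, is the annotated neighbour of Ascl2. On GRCm38.p6 their start sites on chromosome 7 lie 35782 bases apart, with no other RefSeq gene between them. Tspan32 was at 29.6 CPM in the Ascl2+ Mki67- cells against 6.24 CPM in the depth-matched comparison cells, a ratio of 4.74 (2.18 to 11.8), and in 16 cells against 3. With absorptive share matched the ratio was 1.45 (0.679 to 3.19), not called, and beside Ascl2-positive cycling cells it was 1.08. In cycling cells the ratio of Ascl2-positive to Ascl2-negative cells was 0.721 by depth and 0.605 with absorptive share matched.

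A list of 22 interferon gamma response genes was chosen after its values were seen. Of 19 tested, 5 were called higher in the Ascl2+ Mki67- cells and 2 lower, beside 22.2% and 18.5% of all genes, and the summed ratio was 0.886 (0.859 to 0.914). With absorptive share matched 6 of 19 were called higher and 0 lower, beside 7.36% and 7.61% of all genes, and the summed ratio was 1.15 (1.10 to 1.20). Iigp1, an interferon-induced GTPase, was at 280 CPM against 115 CPM, a ratio of 2.44 (2.01 to 2.98), and at 1.74 (1.40 to 2.17) with absorptive share matched. By depth alone the class II genes Cd74 and H2-Aa were lower, Cd74 at 2263 CPM against 2967 CPM and H2-Aa at 534 CPM against 945 CPM. Their levels with absorptive share matched are not given here.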
